A study of Mus musculus with 11 samples.

Results

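The genes described here are 39 inflammatory genes of the mouse: 6 cytokines, 7 chemokines, 8 cytokine receptors and receptor antagonists, 2 adhesion molecules, 4 enzymes of prostaglandin and nitric oxide synthesis, 4 subunits of the transcription factor NF-kB and 8 inhibitors, feedback genes or other targets of its pathway. They were chosen by name from a list, all 39 were found among the 55421 genes counted, and 35 of them had enough reads to enter the tests, which covered 18125 genes. RNA was sequenced from knee articular cartilage, dissected 4 weeks after DMM surgery, in which a loosened medial meniscus leads to osteoarthritis in the mouse. The groups were DMM knees of animals labelled c-FosDCh (n = 4), DMM knees of c-FosWT animals (n = 3) and contralateral knees of c-FosWT animals (n = 4), all of strain C57BL/6 and labelled as 14 weeks old. The labels do not spell out the c-FosDCh allele or name a Cre driver, so the group is called by its label. The libraries of each group carry different animal numbers, and 3 c-FosWT animals gave both knees.

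NF-kB is a family of paired transcription factors held in the cytoplasm by IkB proteins. Signals from interleukin 1 or tumor necrosis factor receptors lead to the breakdown of IkB, and NF-kB then turns on cytokines, chemokines, adhesion molecules, the inducible prostaglandin enzymes and also its own inhibitors, which end the response. In chondrocytes this pathway is known for raising matrix proteases and lowering matrix synthesis. Fos is a subunit of AP-1, another factor that binds the promoters of many inflammatory genes.

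Gene counts per library ranged from 13593454 to 18280558, and levels are given as CPM, the count of a gene relative to its library's total after trimmed-mean scaling. Fos itself had 19.4, 10.9, 29.5 and 33.0 CPM in libraries labelled c-FosDCh, against 12.1, 14.1 and 9.01 in c-FosWT DMM libraries and 15.7 to 24.8 in contralateral ones. Its level therefore does not show a loss of Fos in the libraries labelled c-FosDCh (log2 fold change 0.98 against c-FosWT DMM, edgeR adjusted p = 0.0736), and counts over the whole gene do not show whether a part of it is deleted. The dissected tissue held RNA of other cells: 30 tested genes of erythroid cells and granulocytes summed to 826 to 15000 CPM in c-FosDCh DMM libraries, 16090 to 28280 in c-FosWT DMM libraries and 6131 to 17750 in contralateral libraries. The mean log2 CPM of these genes, called the marrow score, was 7.32, 7.36, 5.91 and 3.70 in c-FosDCh DMM libraries 1 to 4, against 7.87, 8.20 and 8.66 in c-FosWT DMM libraries and 6.34 to 8.0 in contralateral libraries. A like score over 20 cartilage genes was 7.73, 7.71, 8.81 and 8.80 in c-FosDCh DMM libraries, 8.21, 6.38 and 7.47 in c-FosWT DMM libraries and 7.84 to 8.55 in contralateral libraries. The 2 c-FosDCh DMM libraries numbered 3 and 4 thus stood apart, with the highest cartilage and the lowest marrow scores of all 11. A score over skeletal muscle genes was 8.92 in c-FosWT DMM library 1 and 8.25 in contralateral library 2, against 1.70 to 5.93 in the other libraries.

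The 39 genes covered a wide range of levels. Divided by the length of the exons, which makes genes comparable, Cxcl12, a chemokine that holds blood-forming cells in the marrow, was highest in contralateral cartilage with 60.5 CPM per kilobase. It was followed by Il6st, the shared signal subunit of the interleukin 6 family of receptors, with 43.1, Tnfrsf1a, the broadly expressed tumor necrosis factor receptor, with 42.6, and the NF-kB inhibitor Nfkbia with 31.9 CPM per kilobase. Cxcl12 ranged from 45.8 to 85.4 CPM per kilobase over the 4 contralateral libraries and Tnfrsf1a from 38.1 to 45.3 and Il6st from 40.4 to 48.5, so each gene of this order overlapped with the next, except that Nfkbia stayed below Tnfrsf1a at 28.5 to 33.7 CPM per kilobase. In all, 12 of the 39 genes exceeded 10 CPM per kilobase in contralateral cartilage, 18 lay between 1 and 10, and 9 were below 1. Those 9 included the cytokines Il6, Il11, Il1a and Lif, the chemokines Cxcl1, Cxcl2, Cxcl5 and Ccl2, and Nos2, which makes nitric oxide. Most of the cytokines and chemokines thus lay below 1 CPM per kilobase. Cxcl12 was highest of all, and Il1b, Ccl5 and Tnf lay at 5.44, 2.53 and 2.44. The listed receptors, NF-kB subunits and inhibitors, feedback or target genes all lay above 1, from 1.44 for Il1rap to 43.1 for Il6st.

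Promoter sequences show which of these genes carry NF-kB binding letters next to their start. RefSeq promoters (mouse build GRCm38.p6) were found for 30 of the 39 genes, with 37 start sites, and the 250 bases before each start were searched on both strands for the 10-letter κB consensus and for the AP-1 heptamer TGANTCA. A κB match was present in 12 of the 37 windows (32.4%), against 2382 of 32851 windows of all genes (7.25%). An AP-1 match was present in 8 of the 37 windows (21.6%), against 6.75% of all windows. Since many of these genes are listed because they are known NF-kB targets, the share describes the list. A match is a description of letters and not a measured binding site. Matches are shown 5′ to 3′ on the gene's strand, with the match in capitals. They lie before genes of the pathway's own subunits, inhibitors, feedback and targets, and before 3 signal genes for comparison. For Nfkb2 and Cxcl1 one match is shown, and a further match overlaps it, shifted by 1 base; other matches before Nfkb2 are not shown.
Tnfaip3, chr10:19015413-19015422, reverse strand: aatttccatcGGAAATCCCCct
Tnfaip3, chr10:19015526-19015535, reverse strand: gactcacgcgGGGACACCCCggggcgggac
Nfkbia, chr12:55492667-55492676, reverse strand: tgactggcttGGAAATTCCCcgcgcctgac
Nfkbie, chr17:45555594-45555603, forward strand: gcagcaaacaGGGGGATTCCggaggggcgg
Tnfaip2, chr12:111442637-111442646, forward strand: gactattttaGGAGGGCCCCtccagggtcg
Nfkb2, chr19:46304698-46304707, forward strand: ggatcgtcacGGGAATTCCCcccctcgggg
Cxcl1, chr5:90891174-90891183, forward strand: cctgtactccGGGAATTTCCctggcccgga
Il6, chr5:30013070-30013079, forward strand: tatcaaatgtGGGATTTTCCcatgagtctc
Lif, chr11:4257390-4257399, forward strand: atcaagtacaGGGACGCCCCctccccacac
The central letters differ between genes, while the GG at the left and the CC at the right are fixed by the consensus.

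Of the 7 genes that passed the test between the DMM groups, described next, Tnfaip3 and Il1r1 had a κB match in a window and Ptgs2, Ptges, Osmr, Icam1 and Birc3 had none in these letters. Among the 30 listed genes with a promoter, 10 had a κB match. Tnfaip3 and Ptgs2 are shown whole, as a gene with matches that fell in c-FosDCh DMM cartilage and a gene without that rose. Il1r1, with a match, rose, and Birc3, without a match, fell. A link between matches and direction was not tested. In the Tnfaip3 window shown, capitals mark 1 AP-1 and 2 κB matches, which do not overlap. The window of the other Tnfaip3 start, chr10:19011964-19012213, holds neither motif. The Ptgs2 window holds neither motif and is in lower case throughout.
Tnfaip3, chr10:19015411-19015660, reverse strand: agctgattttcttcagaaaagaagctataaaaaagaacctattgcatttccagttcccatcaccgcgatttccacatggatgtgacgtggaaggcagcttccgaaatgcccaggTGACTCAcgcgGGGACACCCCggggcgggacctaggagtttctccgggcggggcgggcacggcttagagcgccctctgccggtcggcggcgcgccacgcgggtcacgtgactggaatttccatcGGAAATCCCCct
Ptgs2, chr1:150099781-150100030, forward strand: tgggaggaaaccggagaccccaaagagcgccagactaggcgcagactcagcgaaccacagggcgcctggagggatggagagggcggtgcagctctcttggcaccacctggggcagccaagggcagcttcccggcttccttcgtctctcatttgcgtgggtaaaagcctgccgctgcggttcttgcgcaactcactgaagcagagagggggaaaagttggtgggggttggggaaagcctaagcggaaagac
AP-1 heptamers were also found before Il1a, Il11, Il1rn, Il6, Lif, Nfkb2 and Nfkbie.

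In DMM cartilage labelled c-FosDCh, against c-FosWT DMM cartilage, the prostaglandin enzymes Ptgs2 and Ptges, the receptors Osmr and Il1r1 and the adhesion molecule Icam1 rose, and the NF-kB inhibitor Tnfaip3 and the ubiquitin ligase Birc3 fell. Thus 7 of 35 genes passed at an edgeR adjusted p under 0.05, against 14.4% of all 18125 genes tested, and the share of the list was not far above that background. By direction, 5 of 35 rose (14.3%), against 10.6% of all genes, and 2 of 35 fell (5.71%), against 3.79% of all genes. Most of the list leaned the other way: 21 of 35 genes had a negative log2 fold change (60.0%), against 50.5% of all genes, and the median was -0.38, against -0.01 over all genes. This lean turned round with the marrow score as a covariate, described further on, where 22 of the 35 were positive, 13 negative and the median was 0.10. Groups did not overlap in CPM for 4 of 35 genes that were higher (Icam1, Il6st, Nfkbiz and Ptges), where the background was 17.2%. They did not overlap for 11 of 35 that were lower (Birc3, Ccl7, Cxcl12, Il1b, Il1rap, Lif, Nfkbie, Socs1, Tnfaip2, Tnfaip3 and Vcam1), where the background was 15.8%. These calls rest on few libraries: without any one of c-FosDCh DMM libraries 3 and 4, c-FosWT DMM libraries 2 and 3 or contralateral libraries 1 and 2, edgeR called 0 of the 35 genes, and without contralateral library 3 it called 1 (Ptges), against 7.56% of all genes. Without c-FosDCh DMM library 1 it called 17, against 24.6% of all genes, and without library 2 it called 12, against 25.8%, all 7 included in both. Genes outside the list lost their calls as well. Cx3cl1, Ptgis and Tab3, other genes of the pathway, passed in 5 of the 11 fits with 1 library left out. Their edgeR adjusted p reached up to 0.143 in these fits. DESeq2 called 15 of the 35 genes, all 7 included, against 28.2% of all genes it tested, and limma-voom called 12, all 7 included, against 19.3% of all genes. Scaled by library totals alone, edgeR called 1176 genes higher and 981 lower over the whole transcriptome, in place of 1929 and 687, and 4 of the 35 genes.

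**Figure D1:**
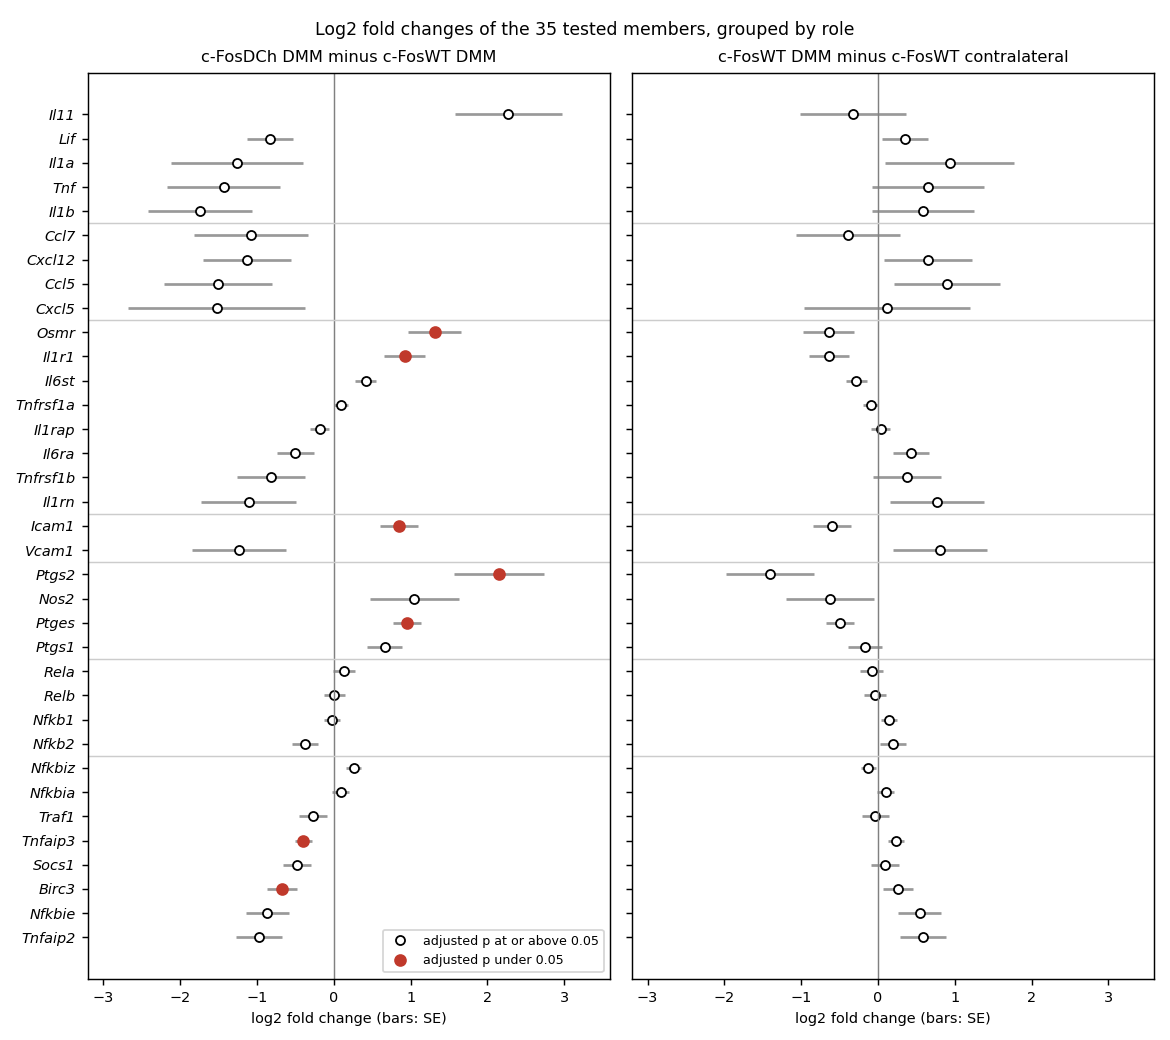
Log2 fold changes (x axis, bars are the SE) of the 35 tested genes, grouped by role from cytokines at the top to inhibitors, feedback and target genes at the bottom, for c-FosDCh DMM minus c-FosWT DMM on the left and c-FosWT DMM minus c-FosWT contralateral on the right. Filled points have an edgeR adjusted p under 0.05: 7 on the left and 0 on the right.

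All 4 enzyme genes of the list had higher means in c-FosDCh DMM cartilage than in c-FosWT DMM cartilage. Ptgs2 (chromosome 1, 150100031 to 150108227), which encodes the inducible cyclooxygenase that starts prostaglandin synthesis in inflammation, had 4.16, 14.2, 20.3 and 6.35 CPM in c-FosDCh DMM libraries, against 4.57, 1.2 and 1.84 CPM in c-FosWT DMM libraries. The lowest c-FosDCh library lay below the highest c-FosWT library, so the groups overlapped by 1 library on each side. The log2 fold change of Ptgs2 was 2.15 ± 0.59 (SE), a 4.45-fold difference (edgeR adjusted p = 0.0413). Ptges (chromosome 2, 30889471 to 30929863) encodes the inducible synthase that makes prostaglandin E from the product of cyclooxygenase. It had 13.9, 16.2, 21.5 and 15.1 CPM in c-FosDCh DMM libraries, against 9.49, 6.76 and 9.62 CPM in c-FosWT DMM libraries. All 4 c-FosDCh libraries were above all 3 c-FosWT libraries, by a log2 fold change of 0.95 ± 0.18 (SE) with an edgeR adjusted p of 0.0332. Ptgs1, the constitutive cyclooxygenase, ranged from 78.9 to 142 CPM in c-FosDCh DMM libraries and from 57.9 to 85.2 CPM in c-FosWT DMM libraries, with a log2 fold change of 0.66 ± 0.22 (SE) and an edgeR adjusted p of 0.0658. Nos2, the inducible nitric oxide synthase, had 2.56, 3.26, 6.57 and 9.85 CPM in c-FosDCh DMM libraries, against 3.87, 1.72 and 2.45 CPM in c-FosWT DMM libraries. Neither Ptgs1 nor Nos2 passed the test (Nos2 log2 fold change 1.05 ± 0.58, SE, edgeR adjusted p = 0.193), and both overlapped between groups.

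**Figure D2:**
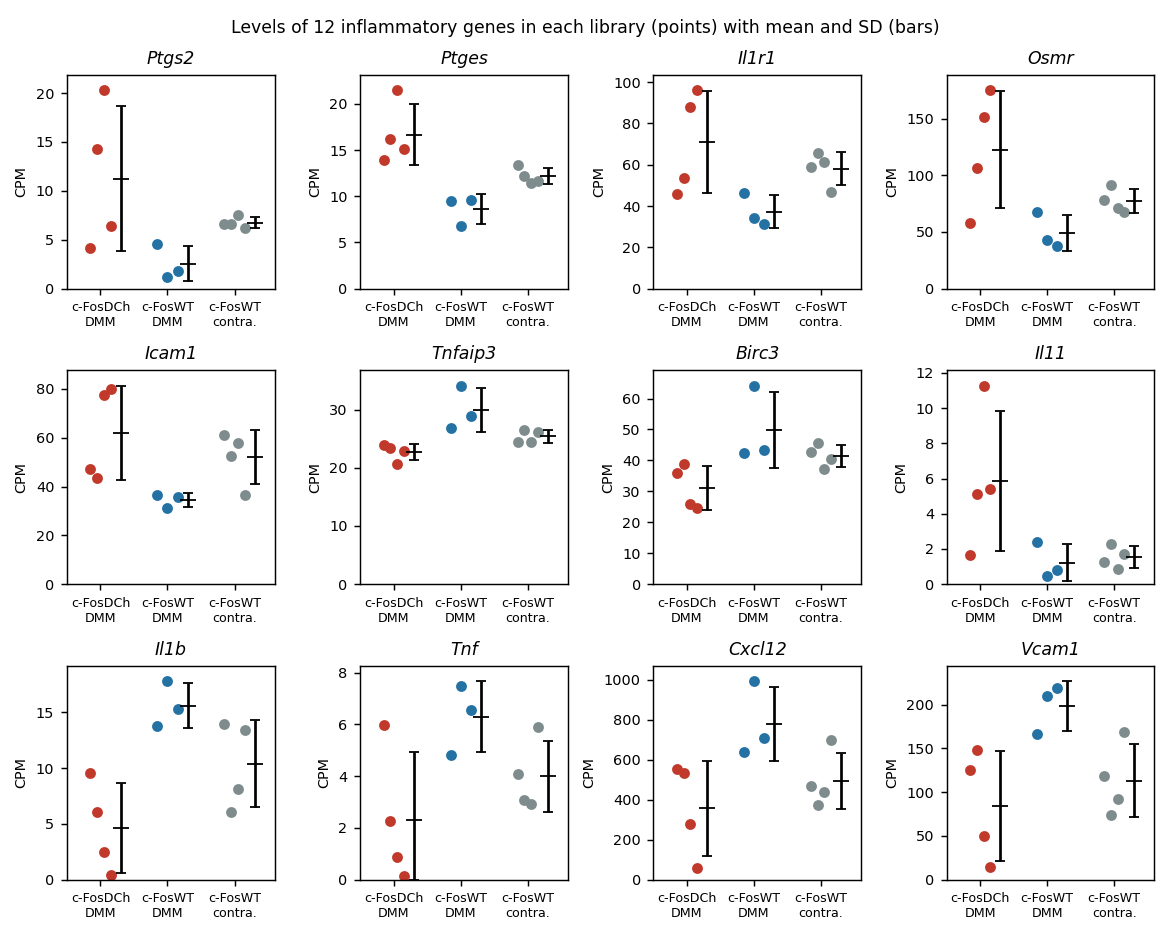
CPM (y axes, each from 0) of 12 of the genes in every library: c-FosDCh DMM in red, c-FosWT DMM in blue, c-FosWT contralateral in grey, with the mean and SD beside the points (the lower bar of Tnf is drawn only to 0). Ptges lies between 13.9 and 21.5 CPM in c-FosDCh DMM libraries, above the 6.76 to 9.62 CPM of c-FosWT DMM libraries, while Il1b, Cxcl12 and Vcam1 lie below them.

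Among the receptors, 2 of 8 rose and 0 fell, where 10.6% of all genes rose and 3.79% fell; counts this small are given as a description of the role. Osmr (chromosome 15, 6813577 to 6874969), the receptor chain for oncostatin M, had 58.1, 106, 152 and 175 CPM in c-FosDCh DMM libraries, against 67.5, 42.9 and 37.9 CPM in c-FosWT DMM libraries. Osmr differed by a log2 fold change of 1.31 ± 0.35 (SE; edgeR adjusted p = 0.0390), and the first c-FosDCh library lay inside the c-FosWT range. Il1r1 (chromosome 1, 40225080 to 40317257), the signalling receptor of interleukin 1, had 45.8, 53.8, 87.8 and 96.0 CPM in c-FosDCh DMM libraries, against 46.2, 34.2 and 31.5 CPM in c-FosWT DMM libraries. The first c-FosDCh library was again level with the highest c-FosWT library, at a log2 fold change of 0.92 ± 0.27 (SE; edgeR adjusted p = 0.0458). Il6st, which passes on the signal of oncostatin M, interleukin 6, interleukin 11 and leukemia inhibitory factor, had 465, 521, 571 and 549 CPM in c-FosDCh DMM libraries, against 449, 379 and 355 CPM in c-FosWT DMM libraries. All 4 were higher, but the difference of 0.42 ± 0.14 (SE) on the log2 scale missed the threshold (edgeR adjusted p = 0.0603). The accessory chain Il1rap, the interleukin 6 receptor Il6ra, the second tumor necrosis factor receptor Tnfrsf1b and the interleukin 1 antagonist Il1rn had log2 fold changes of -0.18, -0.50, -0.82 and -1.11 with edgeR adjusted p of 0.147 or more. Tnfrsf1a overlapped between the groups, and its small positive log2 fold change of 0.09 ± 0.10 (SE, edgeR adjusted p = 0.467) turned negative when libraries were scaled by their totals alone.

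The adhesion molecules went apart. Icam1 (chromosome 9, 21015985 to 21028817), an NF-kB target to which leukocyte integrins bind, had 47.2, 43.4, 77.3 and 79.8 CPM in c-FosDCh DMM libraries, against 36.5, 31.2 and 35.7 CPM in c-FosWT DMM libraries. All 4 were above all 3, with a log2 fold change of 0.85 ± 0.25 (SE) and an edgeR adjusted p of 0.0486. An antisense gene overlaps 11.7% of the exon bases of Icam1, and others overlap 0.7% to 18.1% of those of Il1a, Il1b, Nfkb2, Tnfaip2, Ptgs1, Il1rap, Il6ra and Vcam1. The sources used here do not state the strand setting of the counts, so these genes are uncertain in that respect. Vcam1, which binds other leukocyte integrins and is made by stromal and endothelial cells, had 125, 149, 49.9 and 14.0 CPM in c-FosDCh DMM libraries, against 167, 210 and 219 CPM in c-FosWT DMM libraries. All 4 were below all 3, but libraries 3 and 4 were far below libraries 1 and 2, and the log2 fold change of -1.23 ± 0.61 (SE) did not pass (edgeR adjusted p = 0.156).

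The subunits of NF-kB were close to level, and 2 of 8 inhibitors, feedback and target genes fell, where 3.79% of all genes fell, again as a description. Not all 8 are inhibitors, so this count does not measure a loss of inhibition. Nfkb1, which encodes the p50 precursor, had 147, 138, 135 and 154 CPM in c-FosDCh DMM libraries, against 128, 155 and 155 CPM in c-FosWT DMM libraries. Nfkb1, Rela (p65) and Relb had log2 fold changes of -0.02, 0.13 and 0.01, with edgeR adjusted p from 0.503 to 0.967. Those of Rela and Relb turned negative when libraries were scaled by their totals alone and with the marrow score as a covariate. Both also did so without c-FosDCh DMM libraries 3 and 4. The sign of Relb turned with DESeq2 too, and that of Nfkb1 turned positive with the cartilage score as a covariate. Nfkb2, the p100 precursor of the slower branch of the pathway, had a log2 fold change of -0.38 ± 0.17 (SE, edgeR adjusted p = 0.123). Nfkbia, the IkB alpha gene that NF-kB itself induces, had 57.8, 52.4, 68.8 and 55.8 CPM in c-FosDCh DMM libraries, against 53.3, 55.4 and 56.5 CPM in c-FosWT DMM libraries. These values overlapped, and the log2 fold change of 0.09 ± 0.11 (SE, edgeR adjusted p = 0.536) also turned negative under scaling by totals and without c-FosDCh DMM libraries 3 and 4.

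Tnfaip3 (chromosome 10, 19000910 to 19015657) encodes A20, an enzyme that edits ubiquitin chains and shuts off signals to NF-kB. It had 23.9, 23.4, 20.6 and 22.9 CPM in c-FosDCh DMM libraries, against 26.8, 34.1 and 28.9 CPM in c-FosWT DMM libraries. All 4 were lower, and the step was small: a log2 fold change of -0.40 ± 0.11 (SE), with an edgeR adjusted p of 0.0401. Birc3 (chromosome 9, 7848699 to 7873186), a ubiquitin ligase that limits cell death after tumor necrosis factor, had 35.8, 38.8, 25.8 and 24.5 CPM in c-FosDCh DMM libraries, against 42.3, 64.1 and 43.2 CPM in c-FosWT DMM libraries. It was lower in all 4, by a log2 fold change of -0.68 ± 0.20 (SE), with an edgeR adjusted p of 0.0466. Nfkbie, which encodes IkB epsilon, Tnfaip2, an NF-kB target, and Socs1, an inhibitor of cytokine signals through Janus kinases, also had groups that did not overlap, with log2 fold changes of -0.87 ± 0.28, -0.98 ± 0.30 and -0.48 ± 0.18 (SE). Their edgeR adjusted p of 0.0594, 0.0521 and 0.0867 missed the threshold. Traf1, an adaptor of tumor necrosis factor receptors, had a log2 fold change of -0.27, and Nfkbiz, an IkB protein that works in the nucleus, one of 0.26 ± 0.10 (SE), both short of the threshold (edgeR adjusted p = 0.261 and 0.0802).

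None of the cytokines and chemokines passed, although most had lower means in c-FosDCh DMM cartilage. Il1b, the main inducer of NF-kB in joint tissue, had 9.56, 6.10, 2.50 and 0.397 CPM in c-FosDCh DMM libraries, against 13.8, 17.8 and 15.2 CPM in c-FosWT DMM libraries. All 4 were lower, and they spread over more than the c-FosWT libraries did, so the log2 fold change of -1.74 ± 0.68 (SE) had an edgeR adjusted p of 0.0915. Tnf, made mostly by myeloid and T cells, had 5.99, 2.27, 0.876 and 0.159 CPM in c-FosDCh DMM libraries, against 4.80, 7.5 and 6.56 CPM in c-FosWT DMM libraries, with a log2 fold change of -1.44 ± 0.74 (SE) and an edgeR adjusted p of 0.170. The first c-FosDCh library lay inside the c-FosWT range. Cxcl12 had 555, 535, 277 and 58.6 CPM in c-FosDCh DMM libraries, against 639, 992 and 707 CPM in c-FosWT DMM libraries. The groups did not overlap, yet library 4 was far below libraries 1 and 2, and the log2 fold change of -1.13 ± 0.57 (SE) did not pass (edgeR adjusted p = 0.165). Lif, a cytokine that signals through Il6st, had 3.65, 4.13, 1.88 and 2.30 CPM in c-FosDCh DMM libraries, against 5.62, 5.27 and 5.12 CPM in c-FosWT DMM libraries (log2 fold change -0.83 ± 0.30, SE, edgeR adjusted p = 0.0781). Il11, another cytokine of that family, was the exception in direction among the tested cytokines and chemokines, with 1.68 to 11.3 CPM in c-FosDCh DMM libraries and 0.458 to 2.40 CPM in c-FosWT DMM libraries, a log2 fold change of 2.27 ± 0.70 (SE) and an edgeR adjusted p of 0.0537. The interleukin Il1a and the chemokines Cxcl5, Ccl5 and Ccl7, which draw in neutrophils, T cells and monocytes, had log2 fold changes from -1.53 to -1.08 at 0 to 5.84 CPM in the DMM libraries, none past the threshold.

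Il1b and Tnf were low in c-FosDCh DMM libraries 3 and 4, as were the scores of macrophage, T and NK cell and endothelial marker genes. Il11 was not low there, at 11.3 and 5.40 CPM. The cause of these values was not tested. The macrophage list of 14 genes summed to 205 to 673 CPM in c-FosDCh DMM libraries. The sums were 759 to 885 CPM in c-FosWT DMM libraries and 624 to 804 CPM in contralateral libraries. The T and NK cell list of 10 genes summed to 3.89 to 47.6 CPM in c-FosDCh DMM libraries. It summed to 34.3 to 81.3 CPM in c-FosWT DMM libraries and 21.6 to 52.1 CPM in contralateral ones. In the same order of groups, the endothelial list of 10 genes summed to 176 to 431, 571 to 636 and 414 to 571 CPM. The sums of 10 fibroblast genes of synovium and connective tissue went the other way between the DMM groups. They were 7671 to 12550, 3485 to 5861 and 3900 to 8535 CPM in that order. The mean log2 CPM of these fibroblast genes overlapped, at 5.43 to 6.75 in c-FosDCh DMM and 5.64 to 6.47 in c-FosWT DMM libraries. No marker of these lists or of the marrow lists was at 0 in all libraries. In bulk tissue, fewer cells of a type and less RNA per cell cannot be told apart. The marrow score did not overlap between the DMM groups, at 3.70 to 7.36 in c-FosDCh and 7.87 to 8.66 in c-FosWT libraries. A fit that holds both therefore cannot cleanly separate group from score. With the marrow score as a covariate, edgeR called 0 of 18125 genes between the DMM groups (0.0%). The edgeR adjusted p was 0.357 or more for the 35, and the values of the genes moved very unequally. Ptgs2 had a log2 fold change of 2.15 (2.15 without the covariate), Ptges 0.94 (0.95) and Tnfaip3 -0.36 (-0.40). Osmr was at 0.61 (1.31), Il1r1 at 0.28 (0.92), Icam1 at 0.28 (0.85) and Birc3 at -0.40 (-0.68). Il1b was at -0.30 (-1.74), and Tnf, Cxcl12, Vcam1 and Ccl5 were at 0.10, 0.13, 0.12 and 0.01 (-1.44, -1.13, -1.23 and -1.50). In all, 12 of the 35 genes changed sign, none of them among the 7. With the cartilage score as a covariate, edgeR called 0 genes (0.0%) as well. Tnfaip3 was then at -0.25, Birc3 at -0.32, Icam1 at 0.48, Il1r1 at 0.54 and Osmr at 0.86, each smaller by over 1.5 times, while Ptgs2 was at 1.66 and Ptges at 0.73. Without c-FosDCh DMM libraries 3 and 4, edgeR again called 0 genes (0.0%), and Ptgs2 had a log2 fold change of 1.86, Ptges of 0.79 and Tnfaip3 of -0.36. Among the genes smaller by over 1.5 times were Il1b at -1.01, Osmr at 0.73, Il1r1 at 0.41, Icam1 at 0.38 and Birc3 at -0.44. Tnf at -0.63, Cxcl12 at -0.53 and Vcam1 at -0.55 were among them too.

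**Figure D3:**
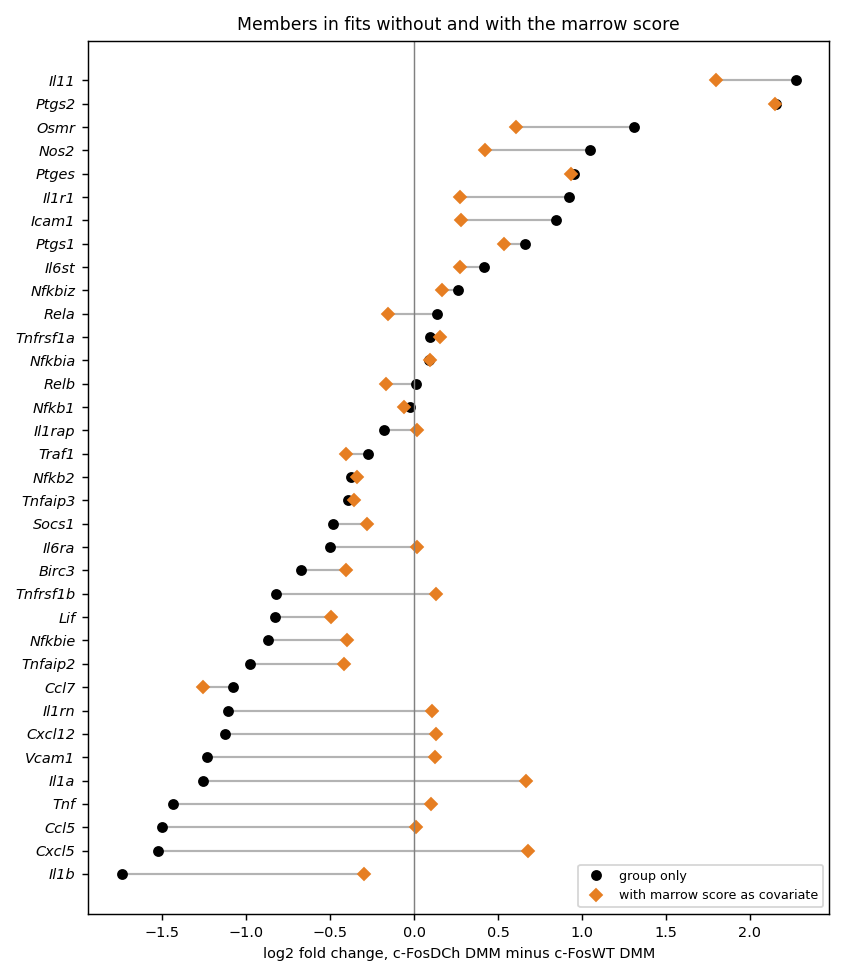
Log2 fold changes of the 35 tested genes between c-FosDCh DMM and c-FosWT DMM (x axis) from the fit with group alone (black circles) and from the fit that also holds the marrow score (orange diamonds), joined by lines and sorted by the first. Ptgs2, Ptges, Nfkbia and Tnfaip3 hardly move, while Il1b, Cxcl5, Ccl5, Tnf, Il1a, Vcam1, Cxcl12 and Il1rn move toward or past 0.

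**Figure D4:**
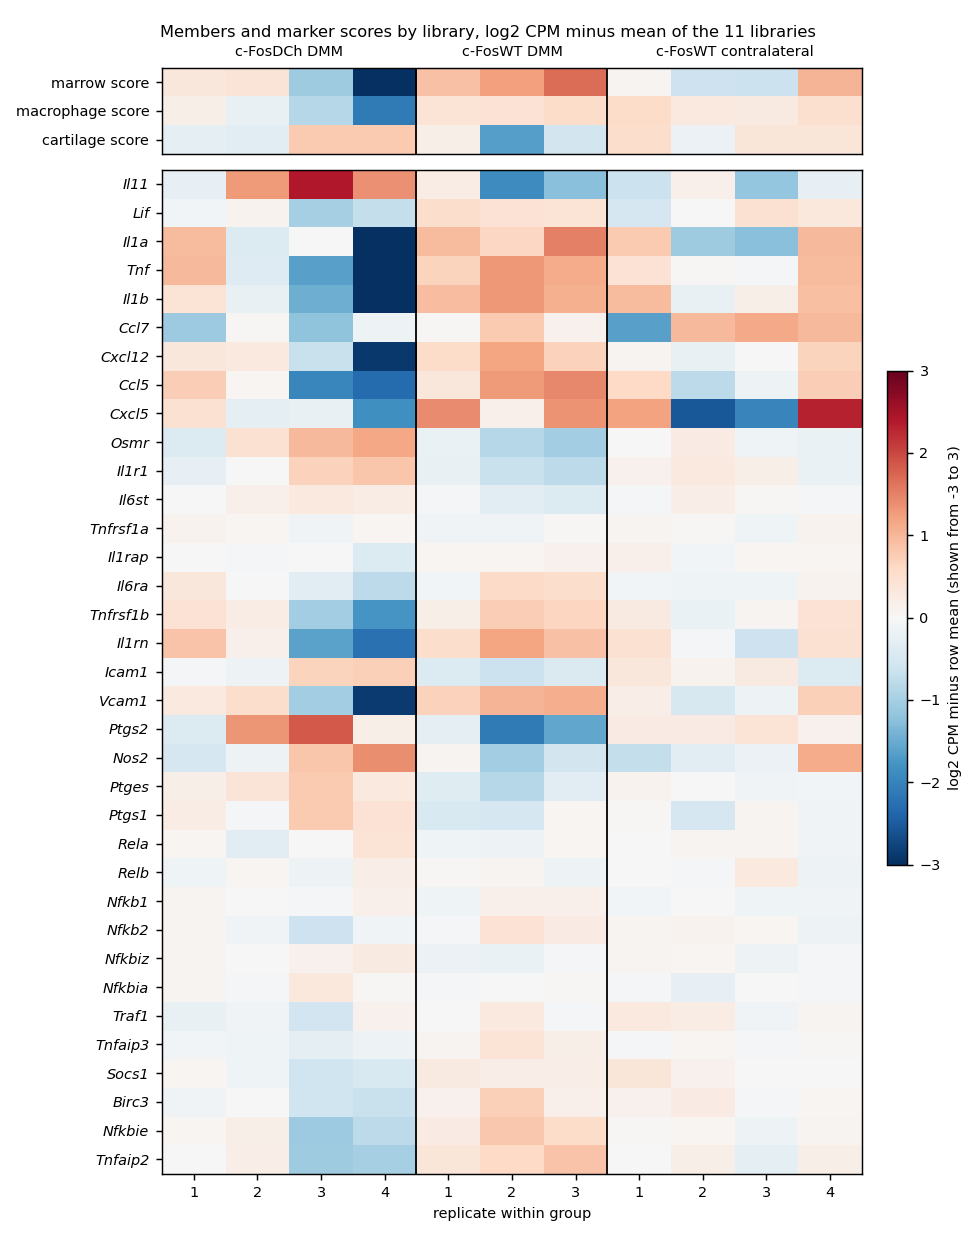
Log2 CPM minus the row mean over the 11 libraries (color, from -3 in blue to 3 in red, values beyond drawn at the limit) for the marrow, macrophage and cartilage scores at the top and the 35 tested genes, in columns for c-FosDCh DMM libraries 1 to 4, c-FosWT DMM libraries 1 to 3 and contralateral libraries 1 to 4. In c-FosDCh DMM libraries 3 and 4, Il1b, Tnf, Cxcl12, Vcam1, Tnfrsf1b and Il1rn are blue together with the marrow and macrophage scores, while Osmr, Il1r1 and Icam1 are red.

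The 4 genes with too few reads for the test were Il6, a cytokine of the acute phase, the neutrophil chemokines Cxcl1 and Cxcl2, and the monocyte chemokine Ccl2. Il6 had 0, 1, 2 and 0 reads in c-FosDCh DMM libraries, 5, 1 and 4 in c-FosWT DMM libraries and 6, 4, 4 and 11 in contralateral libraries. Cxcl1 had 7, 6, 3 and 9 reads in c-FosDCh DMM libraries, 8, 2 and 0 in c-FosWT DMM libraries and 5, 2, 8 and 31 in contralateral libraries. Ccl2 had 3, 5, 1 and 4 reads in c-FosDCh DMM libraries, 5, 6 and 4 in c-FosWT DMM libraries and 7, 9, 9 and 23 in contralateral libraries. Contralateral library 4 held the most reads of all 3 genes, and Ccl2 was higher in every contralateral library than in any DMM library. Cxcl2 had 0 to 8 reads throughout. In an edgeR fit without the filter on low counts, none of the 4 passed in any comparison. The unadjusted p in c-FosDCh DMM against contralateral knees was 0.00492 for Il6, 0.00754 for Ccl2 and 0.0115 for Cxcl2, each with an edgeR adjusted p of 0.680 and a negative log2 fold change of -2.73, -1.66 and -2.74. In c-FosWT DMM against contralateral knees Ccl2 had an unadjusted p of 0.0383 (edgeR adjusted p = 0.385), and between the DMM groups Cxcl2 had one of 0.0182 (edgeR adjusted p = 0.128).

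The effect of the operation in c-FosWT animals was read from DMM against contralateral knees; this comparison shares the c-FosWT DMM libraries with the one above, so opposite signs in the 2 comparisons are not independent. None of the 35 genes passed, and edgeR called 0 of all 18125 genes (0.0%). At an unadjusted p under 0.05 edgeR gave 4 of the 35 genes, all lower in DMM knees (11.4%), against 12.7% of all genes lower and 19.9% in either direction. DESeq2 called 0 of the 35 genes, against 5.61% of the genes it tested, and limma-voom called 0 genes. Those 4 were Ptges, Ptgs2, Il1r1 and Icam1. Ptgs2 had 4.57, 1.2 and 1.84 CPM in c-FosWT DMM libraries, against 6.64, 6.64, 7.52 and 6.17 CPM in contralateral libraries. The contralateral values lay within a narrow band above all 3 DMM values, and the log2 fold change was -1.41 ± 0.57 (SE, edgeR adjusted p = 0.221). Ptges had 9.49, 6.76 and 9.62 CPM in c-FosWT DMM libraries, against 13.4, 12.2, 11.4 and 11.7 CPM in contralateral libraries, again without overlap (log2 fold change -0.49 ± 0.18, SE, edgeR adjusted p = 0.197). Il1r1 was lower in all 3 DMM libraries than the 58.8, 65.8, 61.3 and 46.8 CPM of contralateral libraries, though only just below the last (log2 fold change -0.64 ± 0.26, SE, edgeR adjusted p = 0.224). Icam1, at 61.3, 52.5, 58.0 and 36.3 CPM in contralateral libraries, overlapped with DMM (log2 fold change -0.59 ± 0.25, SE, edgeR adjusted p = 0.227).

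Groups did not overlap for 8 of the 35 genes. Il1r1, Osmr, Ptges and Ptgs2 were lower in c-FosWT DMM knees (4 of 35, 11.4%, against 13.1% of all genes), and Il1rn, Nfkbie, Tnfaip2 and Tnfaip3 were higher (4 of 35, 11.4%, against 10.1% of all genes). In the 3 animals with both knees sequenced, 6 of the 35 genes were lower in the DMM knee of every animal (17.1%, against 24.4% of all genes): Icam1, Il1r1, Osmr, Ptges, Ptgs2 and Tnfrsf1a. Ptgs2 differed by -0.53, -2.35 and -1.68 on the log2 scale in the 3 animals, and Ptges by -0.49, -0.84 and -0.27. A further 12 were higher in every animal (34.3%, against 21.8% of all genes). They were Cxcl12, Il1a, Tnf, Lif, Vcam1, Il1rn, Il6ra, the subunit Relb, the inhibitors Nfkbia, Nfkbie and Tnfaip3, and the NF-kB target Tnfaip2. Some of these steps were close to nothing in 1 animal, at 0.0 for Il6ra, 0.01 for Relb and 0.02 for Nfkbia and Cxcl12. In the main fit Relb had a log2 fold change of -0.03. Tnf differed by 0.23, 1.26 and 0.15, Cxcl12 by 0.45, 1.41 and 0.02, and Tnfaip3 by 0.13, 0.36 and 0.14 on the log2 scale. The marrow score was also higher in the DMM knee of each of these animals, at 7.87, 8.20 and 8.66, against 7.07, 6.35 and 8.0 in their contralateral knees. The cartilage score was lower in the DMM knee of each, at 8.21, 6.38 and 7.47, against 8.55, 7.84 and 8.38. With the marrow score as a covariate, 14 of the 35 genes changed sign, Cxcl12, Il1a, Tnf, Vcam1 and Il1rn among them, and with the cartilage score 13 did, Cxcl12, Tnf, Il1b and Birc3 among them. Icam1, Il1r1, Osmr, Ptges and Ptgs2 changed sign in neither fit.

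Cxcl12 had 468, 374, 440 and 698 CPM and Vcam1 118, 73.4, 92.5 and 169 CPM in contralateral libraries 1 to 4, and both were highest in library 4, which also had the highest marrow score of its group. Il1b had 13.9, 6.07, 8.11 and 13.4 CPM and Tnf 4.07, 3.07, 2.92 and 5.91 CPM in the same libraries. All 4 overlapped with the c-FosWT DMM libraries given above, Il1b only through library 1. Among genes already given for the DMM knees, Osmr had 78.1, 91.5, 71.4 and 67.8 CPM in contralateral libraries, just above the highest c-FosWT DMM library. Il6st had 448, 538, 477 and 452 CPM and Birc3 42.7, 45.7, 37.2 and 40.4 CPM in contralateral libraries, both overlapping with c-FosWT DMM. Lif, at 2.70, 3.86, 5.31 and 4.84 CPM, and Nos2, at 2.2, 2.93, 3.22 and 8.09 CPM in contralateral libraries, overlapped as well. The NF-kB genes were even over the contralateral libraries: Nfkb1 had 131, 139, 128 and 131 CPM, Nfkbia 52.4, 45.8, 54.2 and 52.9 CPM, and Tnfaip3 24.4, 26.5, 24.4 and 26.2 CPM.

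The third comparison set c-FosDCh DMM knees against c-FosWT contralateral knees and differs in both genotype and operation. None of the 35 genes passed, and edgeR called 0 genes in all (0.0%); DESeq2 called 37 genes (0.174% of those it tested) and none of the 35, and limma-voom called 0 genes. At an unadjusted p under 0.05 edgeR gave 5 of the 35 genes (14.3%), against 8.34% of all genes: Il11, Ptges and Ptgs1 higher, Socs1 and Birc3 lower. Ptges, at 13.9 to 21.5 CPM in c-FosDCh DMM libraries and 11.4 to 13.4 CPM in contralateral libraries, was the 1 gene of 35 (2.86%, against 2.28% of all genes) that was higher without overlap (log2 fold change 0.46 ± 0.17, SE, edgeR adjusted p = 0.584). Tnfaip3, at 20.6 to 23.9 CPM in c-FosDCh DMM libraries and 24.4 to 26.5 CPM in contralateral libraries, was the 1 gene (2.86%, against 2.12%) that was lower without overlap (log2 fold change -0.16 ± 0.10, SE, edgeR adjusted p = 0.617). Il11, Ptgs1 and Socs1 had log2 fold changes of 1.95 ± 0.62, 0.49 ± 0.20 and -0.39 ± 0.17 (SE), all with overlap and an edgeR adjusted p of 0.584. Ptgs2 overlapped as well: the c-FosDCh DMM libraries held 4.16 and 6.35 CPM in the lower pair and 14.2 and 20.3 CPM in the higher pair, against 6.17 to 7.52 CPM in contralateral libraries, with a log2 fold change of 0.74 ± 0.50 (SE, edgeR adjusted p = 0.631). Osmr and Il1r1 had log2 fold changes of 0.67 and 0.28. The sign of Il1r1 turned negative in this comparison with the marrow score as a covariate and again without c-FosDCh DMM libraries 3 and 4, and that of Icam1, at 0.25, turned negative without those libraries.

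The rest of the pathway was followed in 92 further genes, of which 83 were tested: adaptors and kinases that link receptors to NF-kB, other inhibitors, chemokines and their receptors, the Janus kinase and STAT branch, and enzymes and receptors of prostaglandins. Between c-FosDCh DMM and c-FosWT DMM cartilage, 8 of 83 rose (9.64%, background 10.6%) and 2 fell (Tab3 and Tnip1; 2.41%, background 3.79%), with a median log2 fold change of -0.19. Ptgis, the prostacyclin synthase, and Ptger1, a receptor of prostaglandin E, rose. The other tested prostaglandin genes of this list did not pass and had negative log2 fold changes, of -0.76 for Ptger2, -0.38 for Pla2g4a, -0.35 for Ptger4, -0.22 for Ptger3 and for Ptges2, -0.19 for Hpgd and -0.01 for Ptges3. Ptgis had 257, 193, 315 and 297 CPM in c-FosDCh DMM libraries, against 115, 85.0 and 123 CPM in c-FosWT DMM libraries (log2 fold change 1.30 ± 0.29, SE, edgeR adjusted p = 0.0332). Ptger1 had 17.5, 10.1, 16.7 and 16.3 CPM against 6.97, 4.41 and 5.73 CPM (log2 fold change 1.41 ± 0.36, SE, edgeR adjusted p = 0.0368). Neither gene overlapped between the DMM groups.

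The transcription factor Stat3, its feedback inhibitor Socs3 and the interleukin 11 receptor Il11ra1 rose. Other genes of the same branch did not pass and differed in sign: Jak1, a kinase bound to Il6st, had a log2 fold change of -0.46, the receptor Lifr -0.59 and the ligand Osm -1.14, against 0.01 for Jak2 and 0.13 for Tyk2. Stat3 had 234, 246, 280 and 277 CPM in c-FosDCh DMM libraries, against 187, 182 and 203 CPM in c-FosWT DMM libraries (log2 fold change 0.44 ± 0.11, SE, edgeR adjusted p = 0.0344). Socs3 had 40.9, 34.8, 34.2 and 37.4 CPM against 25.8, 21.8 and 25.9 CPM (log2 fold change 0.59 ± 0.12, SE, edgeR adjusted p = 0.0332). Il11ra1 was 30.7 to 42 CPM in c-FosDCh DMM libraries and 15.3 to 23.4 CPM in c-FosWT DMM libraries, a log2 fold change of 0.83 ± 0.18 (SE). Cx3cl1, a chemokine that is also an adhesion molecule, was 32.3 to 73.2 CPM in c-FosDCh DMM libraries and 8.65 to 16.8 CPM in c-FosWT DMM libraries, a log2 fold change of 1.87 ± 0.32 (SE). Tnip2, a partner of A20, rose by a log2 fold change of 0.82, while Tab3, an adaptor of the kinase that activates the IkB kinases, fell to 18.3 to 27.1 CPM in c-FosDCh DMM libraries, against 37.1 to 39.1 CPM in c-FosWT DMM libraries (log2 fold change -0.87 ± 0.19, SE, edgeR adjusted p = 0.0332). In c-FosWT DMM against contralateral knees 0 of 83 passed, and the smallest p belonged to Cx3cl1, Ptgis, Tnip1 and Ptger1, with log2 fold changes of -1.23, -1.09, 0.38 and -1.32 and edgeR adjusted p of 0.182. In c-FosDCh DMM against contralateral knees 0 of 83 passed, and the smallest p belonged to Ccl8, Stat3, Ptger3 and Nos3, with log2 fold changes of -2.24, 0.29, -0.43 and -0.84 and edgeR adjusted p of 0.584.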

How the data were processed

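Directional libraries of poly(A) RNA were sequenced as single reads and mapped with STAR, per the labels' protocols; the submitters' processing notes name bcl2fastq 2.19.1.403, STAR 2.6.1a, RSEM, DESeq2 1.22.2 and GRCm38. The authors deposited raw counts per gene, 1 file per library; their strand setting and annotation release were not stated. Rows of reads outside genes stayed out: 7.33 to 26.33% of reads were unmapped, 6.79 to 10.19% multimapping, 33.18 to 41.97% without a feature and 0.62 to 0.94% ambiguous. Symbols, exon lengths and coordinates came from GENCODE M21. No 2 libraries of 1 group agreed within sampling noise.

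In R 4.3.3, edgeR 4.0.16 (filterByExpr, TMM, glmQLFit with robust = TRUE, glmQLFTest, two-sided) fitted group over all 11 libraries; the common biological coefficient of variation was 0.315. Genes were called at a Benjamini-Hochberg adjusted p under 0.05 over all 18125 genes. SE is the absolute log2 fold change over the square root of F, and log2 CPM used a prior count of 2. Alternatives used limma 3.58.1, DESeq2 1.42.0, other scalings and filters, score covariates and libraries left out. The fit was also run on simulated counts. These had a single spread for all genes and no difference in cell content between libraries, so that run cannot speak to the unstable calls. Titles pair 3 c-FosWT contralateral and DMM knees by animal; deviations of the paired libraries from their group means correlated at -0.17, -0.18 and 0.25. The c-FosDCh libraries were numbered by accession order, since 2 carry 1 number. P-values weigh a group difference against the spread between libraries, estimated over all 11. The main fit did not block the 3 animals that gave both knees. The precision of a low count is limited by counting error.

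Named genes were all 39, with values in every library for those past the test and for 15 fixed ones; of the 92 other pathway genes, up to 8 past the test by smallest p, or 4 where none passed. The genes, lists, rules and alternatives were chosen with earlier results of these data known.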

Additional observations from a re-analysis of the deposited data

Results flagged for a closer look

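Of 78 groups of 4 libraries, one per gene and group, 3 held a library apart from the others by Dixon's ratio past its critical value, where chance gives about 1 in 20. Il1rap, the accessory chain of the interleukin 1 receptor, had 11.9 CPM in c-FosDCh DMM library 4, against 15.4 to 15.9 CPM in the other 3 libraries of its group (ratio 0.871). Cxcl2 had 0.125 CPM in c-FosDCh DMM library 3 and 0 in the other 3 (ratio 1.0), which rests on 2 reads. Ccl7 had 0.0627 CPM in contralateral library 1, against 1.0 to 1.13 CPM in the other 3 (ratio 0.875), which rests on 1 read.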

How the results depend on the processing

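Between the DMM groups, the 7 of 35 genes called by edgeR became 15 with DESeq2, 12 with limma-voom, 4 with library totals alone, 1 without the filter on low counts, and 0 in a fit of these 2 groups alone, with the marrow score or the cartilage score as a covariate, without the 2 muscle-rich libraries, or without c-FosDCh DMM libraries 3 and 4. Leaving out 1 library at a time gave 0 to 17 of these genes. Over all genes, 2616 calls became 5257 with DESeq2, 1443 without the filter and 0 under the same 5 settings that gave 0 above, and leaving out 1 library gave 0 to 4626. The cause of these changes was not tested, except that the reduced fits hold fewer libraries. Library totals moved the median log2 fold change of all genes to -0.18, in place of -0.01. For DMM against contralateral c-FosWT knees, DESeq2 called 825 genes and edgeR 0. For c-FosDCh DMM against contralateral knees, DESeq2 called 37, and edgeR 1 at most with a library left out (0 to 1, the 1 without contralateral library 2). With the animal as a replicate block over the 3 pairs of knees, edgeR called 0 genes and 0 of the 35. This block was run only for DMM against contralateral c-FosWT knees, where the main fit also called 0 genes. For 31 gene values, those past the test or of smallest p, no setting run turned the direction; the side of the threshold was kept in 465 cases, lost in 190 and gained in 4. Among all 35 genes, the marrow covariate turned 12 signs between the DMM groups, 14 in DMM against contralateral c-FosWT knees and 4 in c-FosDCh DMM against contralateral knees. The cartilage covariate turned 13 in DMM against contralateral c-FosWT knees, leaving out c-FosDCh DMM libraries 3 and 4 turned 14 in c-FosDCh DMM against contralateral knees, and the other settings turned 0 to 5. None of these genes had passed in the comparison where its sign turned; those that had passed between the DMM groups and turned elsewhere were Il1r1, Icam1 and Birc3. Low counts limit Il6, Cxcl1, Cxcl2, Ccl2, Ccl7 and Il1a.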
